A study of Mus musculus with 6 samples.

Results

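The genes described are those named for the protein subunits of the mitochondrial ribosome. They were taken as every gene whose symbol is Mrpl or Mrps followed by a number and at most 1 letter. They come to 76 of the 21813 gene symbols in the table, 47 of them Mrpl genes (large subunit by name) and 29 Mrps genes (small subunit by name). All counts include Mrps36, which is a member by its symbol although its product is now placed in another complex. The 76 genes also include Mrps18a, counted by name. The 76 genes occupy 85 transcript rows, and each gene is represented by its transcript with the highest mean. RNA was sequenced from isolated pancreatic islets of 3 Ucn3 null male mice and 3 wild-type male littermates, all adults of 3 months. The labels describe the null only as a knockout of Ucn3 and name no allele, strain or other agent. Each library is from 1 animal, and the islets were taken whole, with mixed cell types, although the extraction protocol also mentions sorting.

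Mitochondria keep a small genome of their own, and its messenger RNAs, which code for subunits of the respiratory chain and the ATP synthase, are translated inside the organelle by a dedicated ribosome. The ribosomal RNAs of that ribosome come from the mitochondrial genome, whereas all its proteins are encoded in the nucleus, made in the cytosol and imported. Beta cells, the most abundant cells of the mouse islet, depend on mitochondrial ATP to couple glucose to insulin release. Ucn3 codes for urocortin 3, a peptide that beta cells store and release with insulin and that acts on the somatostatin-secreting delta cells. The comparison addresses how islet gene expression differs without it.

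Promoters of genes for mitochondrial proteins are known for sites of the factors NRF1, GABP (an ETS protein) and YY1, so the windows from 250 bases before to 50 bases after each start were searched for 5 short motifs on both strands. The windows are RefSeq's, on GRCm38.p6, a different build from the mm9 of the expression table, and 67 of the 76 genes matched. The ETS core CCGGAAG was in 23 of these 67 windows (34.3%), against 9.1% of all 27025 promoters of the reference and 18.1% of the 8766 promoters of genes tested here. The YY1 core AAGATGGC was in 12 (17.9%, against 2.9% and 4.7%), and the NRF1 core GCGCATGC in 8 (11.9%, against 2.8% and 5.7%). The cyclic AMP response element TGACGTCA was in 2 (3.0%, against 1.9% and 3.4%) and the E-box CACGTG in 5 (7.5%, against 7.2% and 10.4%). In all, 38 of the 67 windows held at least 1 of the 5 motifs. The share of other promoters with any of the 5 was not counted, so this count has no background. Median GC content was 58.0% in the members' windows, 52.7% in all promoters and 61.0% in those of tested genes. These matches describe letters in a window and do not show binding.

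The windows below were chosen to show this range on named members: Mrpl32 and Mrps18b with several matches, Mrps11 with 1 match and a window that overlaps that of Mrpl46, and Mrps36 and Mrps9 with none, the last 2 being among the most negative and the most positive differences between genotypes. Each is written 5′ to 3′ on the gene's own strand, and capitals mark motif matches on either strand.
Mrpl32: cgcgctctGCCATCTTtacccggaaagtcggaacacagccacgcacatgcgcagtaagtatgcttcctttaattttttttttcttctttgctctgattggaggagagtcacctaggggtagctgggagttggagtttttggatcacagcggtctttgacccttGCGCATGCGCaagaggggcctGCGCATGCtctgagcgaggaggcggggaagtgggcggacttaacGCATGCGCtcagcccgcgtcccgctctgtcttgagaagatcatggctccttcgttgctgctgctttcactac
Mrps18b: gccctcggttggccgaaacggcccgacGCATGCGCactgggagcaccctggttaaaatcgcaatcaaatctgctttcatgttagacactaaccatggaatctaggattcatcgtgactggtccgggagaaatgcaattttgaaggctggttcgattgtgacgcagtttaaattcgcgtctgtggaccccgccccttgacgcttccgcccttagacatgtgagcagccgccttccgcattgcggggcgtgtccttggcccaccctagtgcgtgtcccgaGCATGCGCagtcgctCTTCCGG
Mrps11: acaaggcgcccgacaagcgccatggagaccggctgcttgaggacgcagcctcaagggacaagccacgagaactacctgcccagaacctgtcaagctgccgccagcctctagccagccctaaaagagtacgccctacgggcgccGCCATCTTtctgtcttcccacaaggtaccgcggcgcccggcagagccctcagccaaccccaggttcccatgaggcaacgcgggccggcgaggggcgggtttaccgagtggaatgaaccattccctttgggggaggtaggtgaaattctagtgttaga
Mrps36: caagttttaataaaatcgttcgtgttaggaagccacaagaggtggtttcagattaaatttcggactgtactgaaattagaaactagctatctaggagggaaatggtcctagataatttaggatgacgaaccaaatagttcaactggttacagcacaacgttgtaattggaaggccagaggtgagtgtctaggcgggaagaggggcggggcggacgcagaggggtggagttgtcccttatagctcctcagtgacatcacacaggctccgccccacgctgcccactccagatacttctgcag
Mrps9: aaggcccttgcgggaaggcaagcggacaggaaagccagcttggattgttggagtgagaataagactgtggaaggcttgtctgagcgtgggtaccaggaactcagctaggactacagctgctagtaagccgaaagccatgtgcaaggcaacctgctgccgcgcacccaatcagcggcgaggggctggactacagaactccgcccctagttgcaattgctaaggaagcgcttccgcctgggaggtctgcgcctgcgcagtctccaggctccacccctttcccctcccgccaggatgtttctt
Mrpl32 (chr13:14612988-14613287, minus strand) held 4 NRF1 matches, counted from the start site at -87 to -80, -85 to -78, -66 to -59 and -22 to -15. The first pair overlap and lie on opposite strands. Its YY1 match lay at -242 to -235. Mrps18b (chr17:35916391-35916690, minus strand) held NRF1 matches at -223 to -216 and 29 to 36 and an ETS match at 44 to 50. Mrps11 (chr7:78782881-78783180, plus strand) held a YY1 match at -107 to -100. Its window shares 141 bases, chr7:78783040-78783180, with that of Mrpl46 on the other strand, and the match lies outside the shared stretch. The genes are on opposite strands, so this pair of members starts head to head. Mrps36 lies at chr13:100744610-100744909 on the minus strand and Mrps9 at chr1:42850983-42851282 on the plus strand. Mrps11 and Mrpl46 were picked for this arrangement after their values were seen.

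Depth, estimated from the steps between low values, was 42445000 to 51765000 reads per library. Ucn3, the targeted gene, was at 136, 157 and 155 RPKM (reads per kilobase of transcript, scaled to the library's depth) in the wild-type libraries and 1.61, 1.63 and 1.80 RPKM in the null libraries, a log2 difference of -5.81 (limma adjusted p = 6.58e-08). Islet hormones marked the material as islet in every library, with Ins1 at 28280 RPKM or more and Gcg at 5836 RPKM or more. Over all 12652 genes with a mean of at least 1 RPKM, 2 passed the threshold of 0.05 in limma's test on log2(RPKM + 1) with Benjamini-Hochberg adjustment, or 0.0158%: Ucn3 and the pseudogene Marcksl1-ps4, both lower in the null islets. The unadjusted p was under 0.05 for 999 genes lower in null islets (7.9%) and 185 higher (1.46%).

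Every one of the 76 mitochondrial ribosomal protein genes passed the filter on level. Their median level was 8.45 RPKM, against 6.24 RPKM over all genes tested, and 57 of them lay between 5 and 20 RPKM. Ranked among tested genes, they lay between percentiles 8.8 and 97.3, with a median at 61.3. Estimated reads per gene and library ran from 115 to 3525, with a median of 575, and transcript lengths from 405 to 7300 bases. Genes named for one complex were thus spread over a 48.4-fold range of levels per length.

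The highest level was that of Mrps28, a small-subunit protein, at 78.4 RPKM over the 6 libraries. Mrps21, another small-subunit protein, followed at 38.6 RPKM, and Mrpl24, a large-subunit protein near the exit of the peptide tunnel, at 38.3 RPKM. These last values differ by less than the spread between libraries of either gene. Mrpl23, which also lines the tunnel exit, was at 30.6 RPKM, Mrps33 at 28.9 RPKM and Mrpl33, a small protein of the large subunit, at 28.1 RPKM, again a run of neighbours whose library values overlap. In all, 9 members were over 20 RPKM. Mrpl24 shares 594 exon bases with Rrnad1 on the opposite strand and Mrpl33 shares 107 with Gm43809 on the same strand. Mrpl23 and Mrps33 have annotated pseudogenes. The values of these genes may therefore include reads of other loci, which was not tested.

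The lowest level was that of Mrpl35, a large-subunit protein, at 1.62 RPKM, next to Mrpl19 at 1.70 RPKM, and the library values of this pair overlapped. Mrpl45, which sits where the ribosome faces the inner membrane, was at 2.67 RPKM. The lowest small-subunit genes were Mrps25 at 4.54 RPKM, Mrps2 at 4.62 RPKM and Mrps22 at 4.88 RPKM. Variants of human MRPS2, MRPS22 and MRPS25 are known causes of combined respiratory chain deficiency. These 3 also overlapped one another across libraries. Mrpl19 and Mrps25 share 1962 and 3533 exon bases with Gcfc2 and Nr2c2 on the opposite strand, so their values may include reads of those neighbours.

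No mitochondrial ribosomal protein gene passed the test between genotypes. Of the 76, 0 were called, against 0.0158% of all genes, and limma's adjusted p ran from 0.49 to 0.998. The differences nevertheless leaned to one side: 69 of 76 were below 0, where 61.7% of all tested genes were, and this count was 64 with median-ratio scaling, 55 with equal totals outside the acinar genes and 41 with the acinar level as a covariate. The median log2 difference, null minus wild type, was -0.128, beside -0.034 over all genes, and the range was -0.37 to 0.09. Unadjusted p was under 0.05 for 20 members, all lower, where the background of such genes was 7.9%, and for 0 members in the higher direction (1.46% of all genes). The 20 became 8 with equal totals, 4 with the acinar covariate and 9 to 30 with 1 library left out (9 without null 2, 10 without wild type 3, 12 without wild type 2, 30 without wild type 1). The 61.7% and 7.9% belong to the fit of all libraries without rescaling or covariate, and shares of all genes under the alternatives are not given. The median over all genes was 0.005 with median-ratio scaling, 0.038 with equal totals and -0.02 with the acinar covariate. Equal totals means that the summed RPKM of all genes outside the acinar list was made equal between libraries. Ins2 alone was at 184400 to 232400 RPKM, where all genes summed to 466146 to 496270 RPKM. Insulin therefore weighs heavily in that setting, which does not only set acinar RNA aside. In 24 members every null library lay below every wild-type library, a pattern found in 13.2% of all genes, and in 0 members every null library lay above (1.9% of all genes). In bulk RNA from islets, fewer cells of a type and less RNA per cell cannot be told apart.

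**Figure D1:**
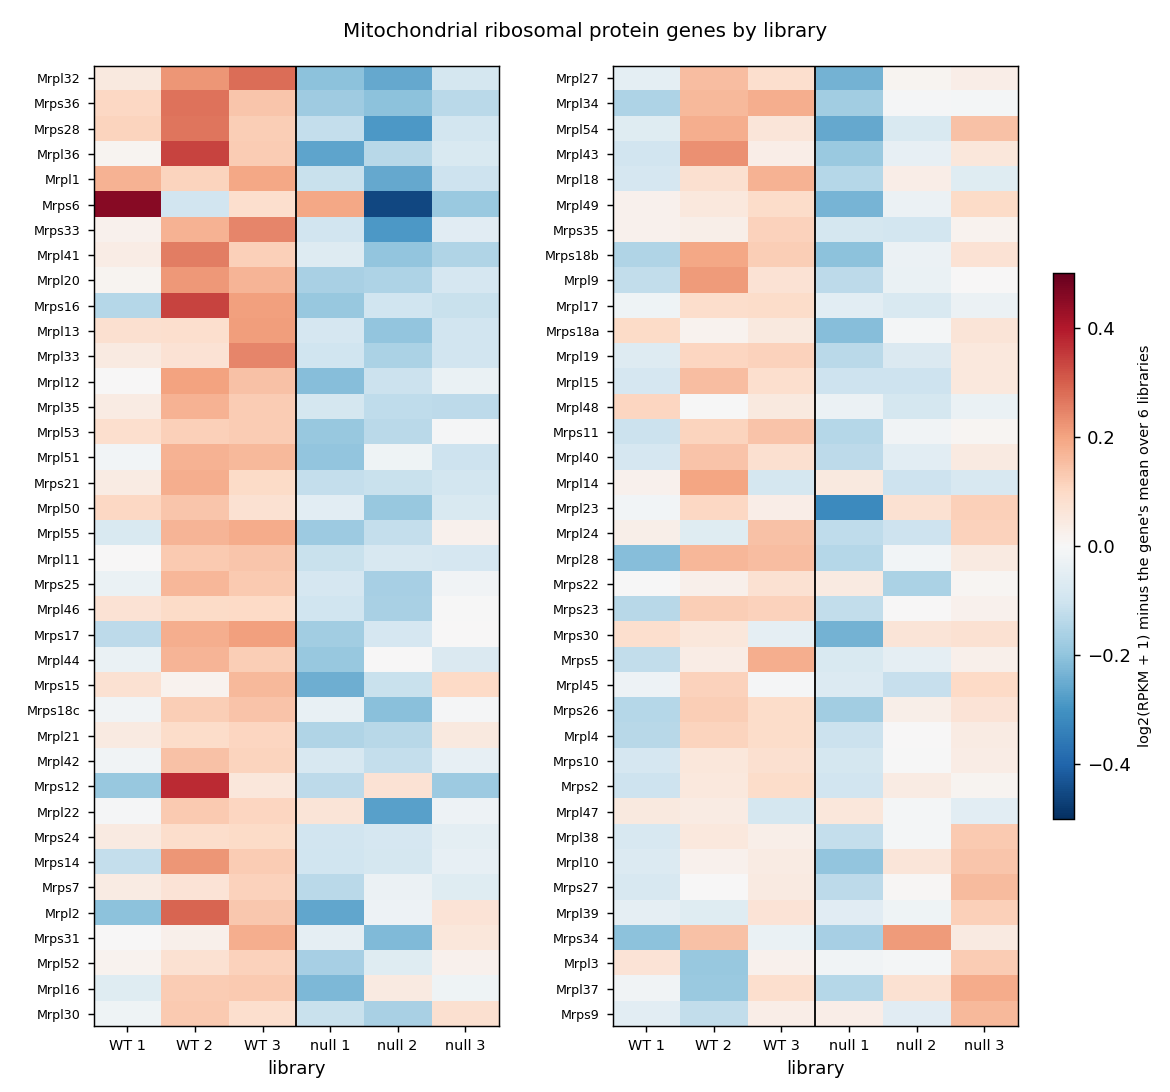
Deviation of each of the 76 mitochondrial ribosomal protein genes from its own mean over the 6 libraries, in log2(RPKM + 1), as colour (red above, blue below), with the genes sorted from the most negative to the most positive difference between genotypes (left panel first). The libraries wild type 2 and 3 are mostly red and null 1 and 2 mostly blue, while wild type 1 and null 3 are closer to the mean of each gene.

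The genes named for the large and the small subunit gave similar counts. Among Mrpl genes 43 of 47 were lower, with a median log2 difference of -0.127, and among Mrps genes 26 of 29, with a median of -0.139. With the acinar covariate 26 Mrpl and 15 Mrps genes were lower, with medians of -0.026 and -0.005. The groups lay apart, null below wild type, in 17 Mrpl and 7 Mrps genes, where 13.2% of all genes did. The difference between the subunits was not tested.

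Among large-subunit genes, Mrpl32, whose protein is matured by the m-AAA protease before it joins the ribosome, had the most negative difference. It was at 8.47, 9.69 and 10.1 RPKM in wild-type libraries 1 to 3 and 6.96, 6.67 and 7.62 RPKM in null libraries 1 to 3, so that the groups did not overlap. The means were 9.42 ± 0.849 and 7.08 ± 0.488 RPKM (SD, n = 3 each), with a log2 difference of -0.37 (SE 0.084, limma adjusted p = 0.49). Mrpl1, part of the mobile stalk beside the exit site of transfer RNA, was at 7.27, 6.92 and 7.38 RPKM in wild type and 5.78, 5.14 and 5.83 RPKM in null islets, 22.3% lower on average. Its log2 difference was -0.32 (SE 0.070, limma adjusted p = 0.49), and the groups again lay apart. A second transcript of Mrpl1 gave -0.22.

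Mrpl13, a core protein of the large subunit, was at 15.5, 15.5 and 17.1 RPKM in wild type and 13.7, 12.6 and 13.6 RPKM in null islets, a log2 difference of -0.25. Mrpl20 was at 17.8, 20.7 and 19.95 RPKM against 15.6, 15.7 and 16.5 RPKM, a difference of -0.27. Mrpl33 was at 28.9, 29.4 and 33.3 RPKM against 26.0, 24.9 and 26.1 RPKM, a difference of -0.24. For each of these 3 genes the highest null library was below the lowest wild-type library, by a margin smaller than the range within the wild type for Mrpl20 and Mrpl33, and the limma adjusted p was 0.49. Mrpl13 shares 330 exon bases with Mtbp on the opposite strand.

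Among small-subunit names, Mrps36 had the smallest unadjusted p. Its product is now known as a component of the alpha-ketoglutarate dehydrogenase complex of the citric acid cycle, so the symbol no longer describes a ribosomal protein. It was at 7.46, 8.51 and 7.66 RPKM in wild type and 5.96, 5.82 and 6.17 RPKM in null islets, with no overlap. The means were 7.88 ± 0.555 and 5.98 ± 0.174 RPKM (SD, n = 3 each), a log2 difference of -0.35 (SE 0.069, limma adjusted p = 0.49). The genome also holds an annotated pseudogene of it, and whether reads were shared with that copy was not tested.

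Mrps28 was at 83.9, 93.7 and 84.7 RPKM in wild type and 71.4, 63.5 and 72.9 RPKM in null islets. The groups lay apart, with means of 87.4 ± 5.43 and 69.3 ± 5.05 RPKM (SD, n = 3 each) and a log2 difference of -0.33 (limma adjusted p = 0.49). Mrps33 was at 29.1, 32.5 and 34.2 RPKM against 26.8, 23.4 and 27.6 RPKM, a difference of -0.29. Mrps21 was at 39.7, 43.9 and 41.2 RPKM against 35.4, 35.6 and 36.1 RPKM, a difference of -0.21, with null libraries that differed among themselves by less than 1 RPKM. These 3 genes were lower in every null library than in any wild-type library, and none passed the test.

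**Figure D2:**
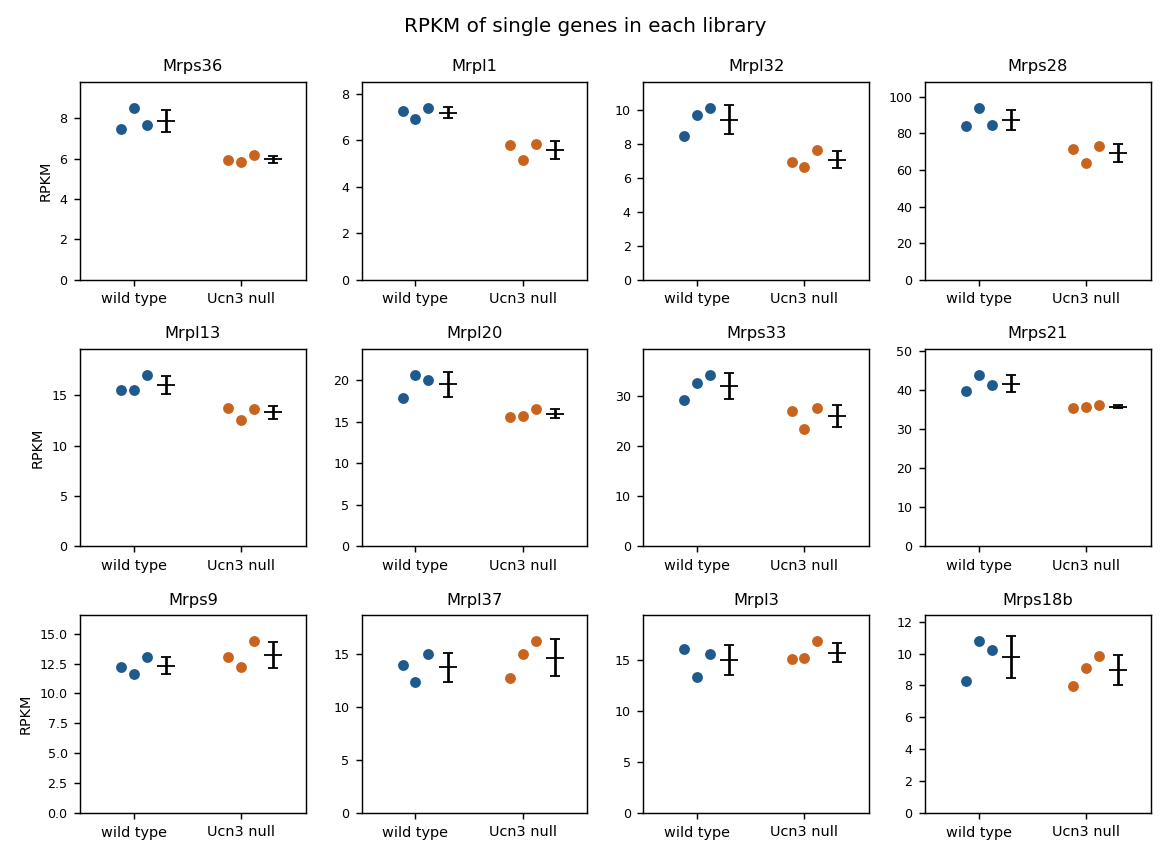
RPKM of 12 genes in each library (points, 3 wild type in blue and 3 Ucn3 null in orange, replicates 1 to 3 from left to right), with the mean and SD of each group as black marks on axes that start at 0. In the first 8 genes the null points lie below the wild-type points, and in Mrps9, Mrpl37, Mrpl3 and Mrps18b the groups overlap.

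Among the most abundant and the least abundant members several showed little difference. Mrpl24 was at 39.0, 36.5 and 42.4 RPKM in wild type and 34.9, 35.5 and 41.5 RPKM in null islets (log2 difference -0.08). Mrpl23 was at 30.1, 32.8 and 31.1 RPKM against 24.2, 32.2 and 33.2 RPKM, a difference of -0.08 that rests on null library 1 and was 0.06 without it. Mrpl35, at the other end, was at 1.69, 1.94 and 1.85 RPKM against 1.46, 1.39 and 1.39 RPKM, and its groups did not overlap. It was 22.8% lower on average. Its log2 difference of -0.23 was -0.349 with a pseudocount of 0.1, since a pseudocount of 1 shrinks differences at so low a level. Mrpl19 (-0.10), Mrpl45 (-0.05), Mrps25 (-0.18), Mrps2 (-0.03) and Mrps22 (-0.07) overlapped between genotypes. Small differences like these changed sign with the scaling. With equal totals outside the acinar genes, in which insulin weighs heavily, Mrpl24, Mrpl23, Mrpl45, Mrps2 and Mrps22 were at 0.009, 0.003, 0.009, 0.047 and 0.006.

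Of the 7 members with a difference above 0, the 3 furthest from it were Mrps9, Mrpl37 and Mrpl3. Mrps9, a small-subunit protein of the head, was at 12.3, 11.6 and 13.1 RPKM in wild type and 13.1, 12.2 and 14.4 RPKM in null islets (log2 difference 0.09, limma adjusted p = 0.76). Mrpl37, a protein found only in the mitochondrial kind of ribosome, was at 13.9, 12.3 and 15.02 RPKM against 12.7, 14.96 and 16.2 RPKM (0.08, limma adjusted p = 0.86). Mrpl3, a core protein close to the catalytic centre, was at 16.1, 13.3 and 15.6 RPKM against 15.1, 15.2 and 16.8 RPKM, and its difference of 0.07 was -0.01 without wild-type library 2. The groups overlapped in all 3 genes, with null library 3 the highest of the 6 in each.

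The Mrps18 paralogs derive from 1 bacterial protein. The product of Mrps18a sits in the large subunit despite its name, and those of Mrps18b and Mrps18c occupy the small subunit. Mrps18a was at 15.8 ± 0.468 and 14.6 ± 1.53 RPKM in the wild-type and the null libraries (SD, n = 3 each), a log2 difference of -0.11. Mrps18b was at 9.76 ± 1.30 and 8.96 ± 0.951 RPKM, also -0.11, and Mrps18c at 12.8 ± 0.820 and 11.3 ± 0.904 RPKM, a difference of -0.17. All 3 overlapped between the groups, the difference of Mrps18b was 0.149 with the acinar covariate, and limma's adjusted p ran from 0.57 for Mrps18c to 0.81 for Mrps18b. Mrps18b shares 638 exon bases with Gm16279 on the opposite strand, and Mrps18c shares 174 with Gm43511 on the same strand.

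Several transcripts were listed for 7 members. In Mrpl15, Mrps2, Mrps33 and Mrps36 they were proportional to each other within 0.1% across libraries, so they carry 1 measurement. In Mrpl48 the transcript used had a difference of -0.10 and the other -0.16, and in Mrps10 the values were -0.03 for all 3 transcripts. Mrpl46, which starts head to head with Mrps11, was at 7.60, 7.75 and 7.76 RPKM in wild type and 6.65, 6.31 and 7.17 RPKM in null islets (-0.18), without overlap. Mrps11 was at 7.37, 8.74 and 8.96 RPKM against 7.16, 7.89 and 8.08 RPKM (-0.10), with overlap. Members with and without a motif had medians of -0.11 and -0.14 for NRF1, -0.13 and -0.14 for ETS, and -0.15 and -0.13 for YY1. For the cyclic AMP response element, in 2 members, they were -0.12 and -0.14, and for the E-box, in 5 members, -0.17 and -0.13. These differences were not tested.

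The differences followed single libraries as well as genotype. The mean log2(RPKM + 1) over the 76 genes was 3.381, 3.516 and 3.507 in wild-type libraries 1 to 3 and 3.276, 3.320 and 3.403 in null libraries 1 to 3. The group means were 3.468 ± 0.076 and 3.333 ± 0.065 (SD, n = 3 each), and the groups overlapped, since null 3 lay above wild type 1. The same order held for Mrpl genes (3.311, 3.446 and 3.433 against 3.195, 3.249 and 3.334) and for Mrps genes (3.493, 3.630 and 3.627 against 3.407, 3.434 and 3.515). Summed over the 76 genes, RPKM was 905.0, 996.3 and 985.5 in wild type and 822.8, 845.9 and 907.1 in null islets.

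Library by library, 32 members were highest in wild type 2 and 29 in wild type 3, whereas 39 were lowest in null 1 and 23 in null 2. Wild type 1 was below both other wild-type libraries in 62 members and below at least 1 null library in 49. Null 3 was the highest null library in 55. Expression of acinar genes, made by the enzyme-secreting cells of the exocrine pancreas, differed between the same libraries in the opposite order. The mean log2(RPKM + 1) of 30 tested acinar markers was 6.668, 3.722 and 5.513 in wild type and 8.422, 7.728 and 6.422 in null islets. All 31 acinar markers were above 0 in every library, and their summed RPKM ran from 761.7 to 9231 in wild type and from 6876 to 34037 in null islets. All 30 tested were higher in null islets, with a median log2 difference of 2.386 and 0 called by limma. Unadjusted p was under 0.05 for 29 of them, where 1.46% of all genes were higher at that p. Most of these markers rose and fell together over the libraries, so the 29 are not separate observations. With this acinar mean as a covariate, the members' median difference was -0.024, beside -0.02 over all genes, and 41 of 76 were lower. The acinar mean was itself mostly higher in null islets, so acinar level and genotype are partly confounded. This fit cannot fully separate them, and a smaller genotype difference in it does not assign a cause. The part of acinar RNA in the members' lower values was not tested.

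**Figure D3:**
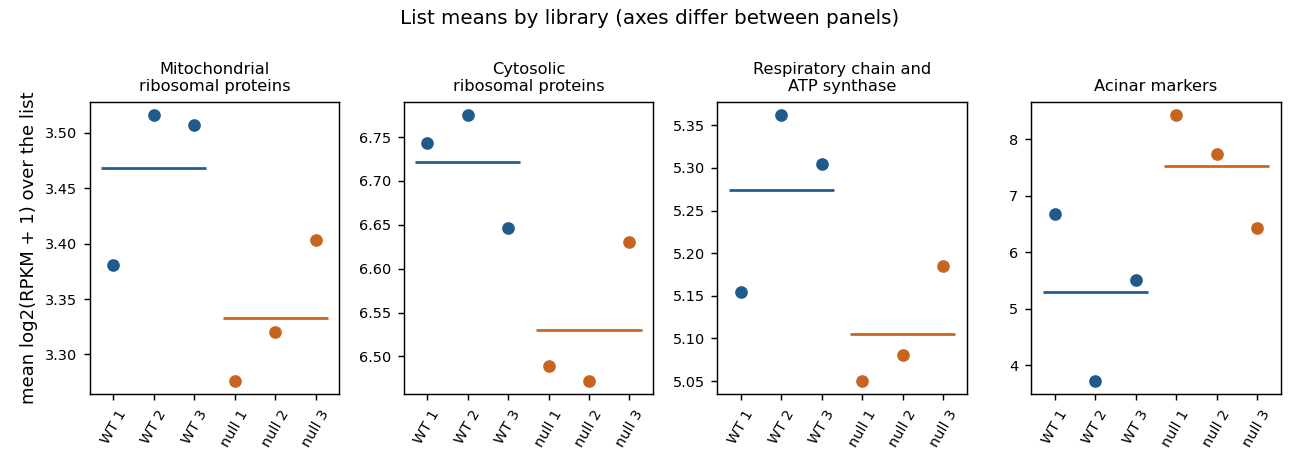
Mean log2(RPKM + 1) over each list in each library (blue points wild type, orange points Ucn3 null, lines at the group means, axes different in each panel). Mitochondrial ribosomal protein genes are lowest in null 1 at 3.276 and highest in wild type 2 at 3.516, the libraries where the acinar markers are highest at 8.422 and lowest at 3.722.

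Markers of other cell types were compared in the same way. The 3 tested delta cell markers were lower in null islets with a median log2 difference of -0.826, and their summed RPKM ran from 1747 to 2405 in wild type and from 682.8 to 1083 in null islets. The 13 beta cell markers had a median of -0.005. Their summed RPKM, mostly Ins2, was 247500 to 286100 in wild type and 230900 to 255500 in null islets. Summed RPKM of alpha cell markers was 8806 to 9749 in wild type and 6774 to 11076 in null islets. Endothelial markers summed to 63.17 to 72.24 and 65.45 to 72.12 RPKM. Ductal markers were at 302.3 to 404.8 RPKM summed in wild type and 261.1 to 345.3 RPKM in null islets, macrophage markers at 23.18 to 57.19 and 18.16 to 32.86 RPKM, and red cell markers at 111.3 to 587.6 and 102.3 to 443.6 RPKM. No marker of these lists was at 0 in every library. Their part in the members' values was not tested.

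Transcript length also went with the differences. Over the 26 members with transcripts of up to 1000 bases the median was -0.164 and 25 were lower (96.2%). Over the 31 of over 1000 and up to 2000 bases it was -0.108 with 27 lower (87.1%), and over the 19 longer ones -0.107 with 17 lower (89.5%). All other tested genes of the same lengths had medians of -0.117, -0.074 and -0.014, with 73.1%, 73.5% and 55.3% lower. Every null library was below every wild-type library in 42.3%, 19.4% and 36.8% of members by length class, and in 20.5%, 17.1% and 10.5% of other genes. As a description across genes, which share libraries, Spearman's rho of length with difference was 0.32 over the 76 members and 0.30 over 12430 genes. The part of length in the differences was not tested.

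**Figure D4:**
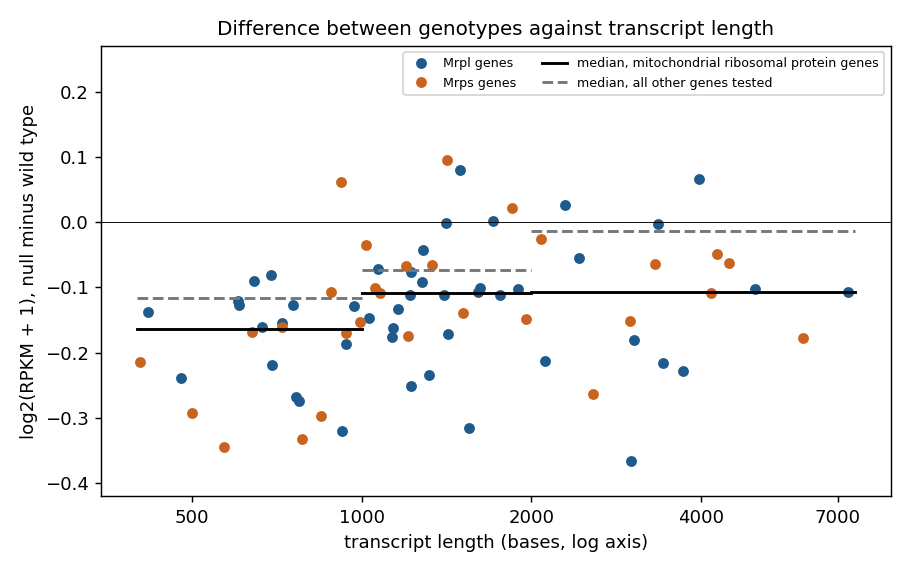
Log2 difference, null minus wild type, of each mitochondrial ribosomal protein gene against transcript length on a log axis (Mrpl blue, Mrps orange), with medians per length class for the members (black lines) and all other tested genes (grey dashes). The members' medians of -0.164, -0.108 and -0.107 lie below those of other genes of like length, at -0.117, -0.074 and -0.014.

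A pair of gene groups functionally close to the members leaned the same way. All 78 tested genes for cytosolic ribosomal proteins, which build the ribosome of the cytosol, were lower (75 with the acinar covariate), with a median log2 difference of -0.197, 0 called by limma, 33 at an unadjusted p under 0.05 (7.9% of all genes) and 47 in which the null libraries all lay below the wild type (13.2% of all genes). The median was -0.11 with equal totals and -0.114 with the acinar covariate. Their library means were 6.743, 6.775 and 6.646 in wild type and 6.489, 6.472 and 6.630 in null islets. All 79 tested nuclear genes for respiratory chain and ATP synthase subunits, many of them partners of the proteins the mitochondrial ribosome makes, were lower too. With equal totals outside the acinar genes 67 were lower, and with the acinar covariate 46. The 79 genes had a median of -0.172, with 0 called by limma. Of them, 26 were at an unadjusted p under 0.05 and 28 were without overlap, to be read against the same shares. That median was -0.086 with equal totals and -0.028 with the acinar covariate. Their library means were 5.155, 5.362 and 5.305 against 5.050, 5.081 and 5.185. Median transcript length was 831.5 bases for the cytosolic list and 758 for the respiratory list, both shorter than the members' 1224. Differences between these lists and the members were not tested, nor was the part of length in them.

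Other genes of mitochondrial translation, 67 in the table and 64 tested, did not lean as far. Of these, 42 were lower (66%, near the 61.7% of all tested genes) and 22 higher. The median log2 difference was -0.021, beside -0.034 over all genes, and 0 were called by limma. These counts moved with the scaling, to 24 lower with median ratios (median 0.02), 14 with equal totals outside the acinar genes (0.052) and 24 with the acinar covariate (0.032). The median over all genes moved as well, to 0.005, 0.038 and -0.02 in the same order. The counts of the single lists that follow are to be read against the same shares and medians. Over all these lists the median transcript length was 2262 bases, against 1224 for the members. Tested genes outside the members had a median difference of -0.117 with transcripts of up to 1000 bases and -0.014 over 2000. The part of length in the weaker lean was not tested. A list of 8 genes held ribosome subunits whose symbols are not Mrpl or Mrps and the insertase Oxa1l, which is not a subunit. In it 6 were lower, with a median of -0.134 that was 0.036 with the acinar covariate, and Oxa1l was 1 of the 2 higher genes (0.04). Among them Chchd1, a small-subunit protein, was at 18.83, 20.97 and 18.57 RPKM in wild type and 15, 13.96 and 17.03 RPKM in null islets, without overlap (-0.33, SE 0.090, limma adjusted p = 0.49). Ptcd3, a pentatricopeptide protein of the small subunit, was at 8.28 ± 0.360 and 7.37 ± 0.710 RPKM (SD, n = 3 each; -0.15). Of the 64 genes, 1, Chchd1, had an unadjusted p under 0.05.

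Translation factors had a median of -0.026 with 12 of 13 lower, but 4 of 13 were lower with median ratios and 1 of 13 with equal totals. Mrrf, the factor that recycles ribosomes after termination, was at 4.64 ± 0.124 and 4.21 ± 0.317 RPKM in the wild-type and the null libraries (SD, n = 3 each), and Mtrf1, a release factor, at 1.94 ± 0.032 and 1.87 ± 0.112 RPKM. Assembly and rRNA modification factors had a median of -0.011 with 15 of 24 lower, against 9 with median ratios and 4 with equal totals or the acinar covariate. Rnmtl1, an rRNA methyltransferase also called Mrm3, was at 2.06 ± 0.187 and 1.75 ± 0.261 RPKM, and Nsun4, which methylates rRNA of the small subunit, at 3.33 ± 0.523 and 3.77 ± 0.274 RPKM.

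Mitochondrial aminoacyl-tRNA synthetases, which charge transfer RNAs, were lower in 6 and higher in 9 of 15 tested, with a median of 0.016. With median ratios 2 were lower (median 0.051), with equal totals 1 (0.08) and with the acinar covariate 8 (-0.013). Yars2, for tyrosine, was at 3.82 ± 0.053 and 3.33 ± 0.2797 RPKM (SD, n = 3 each; -0.16), without overlap, and Cars2, for cysteine, at 13.1 ± 1.95 and 14.97 ± 2.26 RPKM (0.18). The 4 genes of mitochondrial transcription had a median of -0.12, which was -0.08 with median ratios, -0.047 with equal totals and -0.052 with the acinar covariate. Tfam, which packages mitochondrial DNA and starts its transcription, was at 4.89 ± 0.113 and 4.41 ± 0.411 RPKM, and Mterf, a transcription terminator, at 2.48 ± 0.207 and 2.12 ± 0.252 RPKM. None of these genes passed the test, with limma adjusted p of 0.49 or more.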

How the data were processed

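RNA from islets of 6 animals, 1 library each, was made into libraries with a TruSeq kit, per the labels' protocols. Expression was deposited as RPKM computed by the authors for each RefSeq transcript. DESeq, STAR and bedtools appear in the submitters' processing notes with no version and no role, beside the build mm9. The sources used here do not say how shared reads and strand were handled. From 28129 rows, 117 empty ones and 1 holding text were dropped, leaving 28011.

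Per symbol, the transcript with the highest mean was kept. Genes with a mean of at least 1 RPKM (12652) were tested as log2(RPKM + 1) with limma 3.58.1 in R 4.3.3 (eBayes with a mean trend, two-sided, Benjamini-Hochberg over all tested genes, threshold 0.05). Values are null minus wild type, and differences on this scale understate the change of low genes. Differences were tested over all 6 libraries with no block. The script was tested on simulated data. Depth and reads per gene were estimated from RPKM steps and transcript lengths matched by accession (98.2% of tested genes): 76.2% to 77.7% of low values were whole reads within 0.1 read, against 13.3% to 14.8% at other depths, so no count test was run. Exons shared with other genes and pseudogenes came from GENCODE.

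Members and lists were chosen with earlier results of these data known. Genes named are the 4 smallest p and the 3 highest and 3 lowest levels in each subunit, the 3 most positive and most negative differences, the Mrps18 paralogs, up to 4 members whose transcripts differ, and the 2 smallest p in each other list. Alternatives covered the pseudocount, filter, scaling, trend, transcript choice, acinar covariate and each library left out. Length classes, members without shared exons and centring on all genes were added after seeing the data.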

Additional observations from a re-analysis of the deposited data

How the results depend on the processing

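No member was called under any alternative (smallest adjusted p, 0.26 without wild type 1 to 0.97), where filtering at 5 RPKM tested 66 members. Over all genes, 4 were called without a filter, 1 with a mean of at least 5 RPKM, 1 with the acinar covariate, and 1 to 5 with 1 library left out (5 without null 1, 1 without null 2). The members' median difference stayed below 0 in every alternative but shrank to -0.048 with equal totals outside the acinar list (all genes 0.038) and to -0.024 with the acinar covariate, where 41 members were lower. With 1 library left out it was -0.181 (without wild type 1) to -0.099 (without null 1), with 62 to 71 members lower. Members lower at an unadjusted p under 0.05 numbered 8 with equal totals, 4 with the acinar covariate and 9 to 30 with 1 library left out (30 without wild type 1, 12 without wild type 2, 10 without wild type 3, 9 without null 2). The shares of all genes at that p under these alternatives are not given. Centred on the median of all genes the median was -0.101, and over the 48 members with no shared exon and no annotated pseudogene -0.131. The cause of these changes was not tested.

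Of 369 values of 25 named members, 20 changed sign. With equal totals Mrpl24 was 0.009, Mrpl23 0.003, Mrpl45 0.009, Mrps2 0.047, Mrps22 0.006 and Mrps10 0.043. With the acinar covariate Mrpl23 was 0.119, Mrpl19 0.043, Mrpl45 0.086, Mrps2 0.075, Mrpl3 -0.014, Mrps18b 0.149 and Mrps10 0.072. With median-ratio scaling Mrps2 was 0.014 and Mrps10 0.007. With 1 library left out Mrpl23 ran from -0.162 to 0.058, Mrps2 from -0.083 to 0.016, Mrpl3 from -0.011 to 0.117 and Mrps10 from -0.086 to 0.0. No paired analysis was possible because no label ties a null animal to a wild-type animal. The 3 against 3 design limits an exact test of a single value to p = 0.1 at the least.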
